A study of Sus scrofa with 189 samples.

Results

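APIP is 1 of 12651 genes in a table of muscle transcripts from 189 pigs, and it was singled out because its log2 level varied more between animals than that of any other tested gene with a symbol. Of all 10717 genes tested, 1 had a larger SD, a mitochondrially encoded gene without a symbol in the table (2.93 log2 units, against 2.56 for APIP). Its members were the table entries carrying the symbol APIP, of which there was 1, transcript ENSSSCT00000046522 of gene ENSSSCG00000013299. The value per transcript and the value summed over the gene are therefore the same number, and other transcripts of the gene were not analysed here. Because the spread of APIP chose it, its levels are given below as a description with no test. Tests were run on its relation to the labels and to other genes.

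APIP encodes methylthioribulose-1-phosphate dehydratase, an enzyme of the methionine salvage pathway. That pathway recovers methionine from methylthioadenosine, the by-product left when cells make the polyamines spermidine and spermine. MTAP cleaves methylthioadenosine, the isomerase MRI1 and the dehydratase APIP process the sugar phosphate, the enolase-phosphatase ENOPH1 and the dioxygenase ADI1 form the keto acid, and aminotransferases such as KYAT1, GOT1 and GOT2 return it to methionine. In human and mouse cells the APIP protein also binds APAF1, the scaffold of the caspase-activating apoptosome, which gave the gene its name (APAF1 interacting protein).

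The study measured polyadenylated RNA of longissimus dorsi, the long back muscle, in F1 pigs from Duroc boars and Luchuan sows, to relate gene expression to genotype and meat quality. All animals shared the cross, the farm, the diet and an age at slaughter of 210 ± 6 days, and no group received a treatment. The labels divide the 189 libraries, each from 1 animal, in 4 ways. The titles of 21 libraries carry a mark, re-analyzed, that is not explained, and those of 168 are unmarked. The digits of the title begin with 16 in 120 animals and with 15 in 69. The first 9 digits form a title code that is shared by 2 or more animals in 48 cases, covering 146 animals, and what it stands for is not stated. Intramuscular fat content (IMF) is recorded for 164 animals, without a unit, and missing for 25. The labels do not say which animals share a parent.

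Values are FPKM, fragment numbers scaled to transcript length and to the mapped fragments of each library. The summed FPKM of a library ranged from 364109 to 465105, and 7803 to 10614 genes reached 1 FPKM in a library. The table holds no read counts, so the depth of the libraries is unknown. No pair of libraries was identical, with a highest pairwise correlation of 0.979. Library 39 was the least like the others, with a median correlation of 0.889. The 5 fast-fibre contractile genes listed for this work (MYH4, MYH2, TNNT3, TNNI2 and MYLPF) summed to between 21484 and 60670 FPKM per library, so defining genes of skeletal muscle were present in every library.

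APIP was either high or close to 0, with almost nothing between. Of the 189 animals, 105 had 10 FPKM or more, 81 had less than 1 FPKM, and 3 lay from 1 to under 10 FPKM. The higher values spread from 14.5 to 94.2 FPKM with a median of 37.2 and a mean of 40.3 ± 12.8 FPKM (SD, n = 105). The lower values spread from a listed 0 to 1.297 FPKM with a median of 0.0648 FPKM (n = 84). The lowest value of the upper mode was thus 11.2 times the highest value of the lower mode, and the terms upper mode and lower mode stand for these 2 sets of animals below.

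The distribution over all animals had a lower quartile of 0.109, a median of 27.0 and an upper quartile of 39.2 FPKM. Its mean of 22.5 ± 22.1 FPKM (SD, n = 189) fell close to the empty stretch and described no typical animal. On the log2(FPKM + 1) scale used for all tests, the level was 3.04 ± 2.56 (SD, n = 189). The empty stretch was 2.76 log2 units wide, and the next widest step between neighbouring animals, 0.42 log2 units, lay at the top, where library 105 at 94.2 FPKM stood above library 3 at 70.1 and library 15 at 69.3 FPKM.

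**Figure D1:**
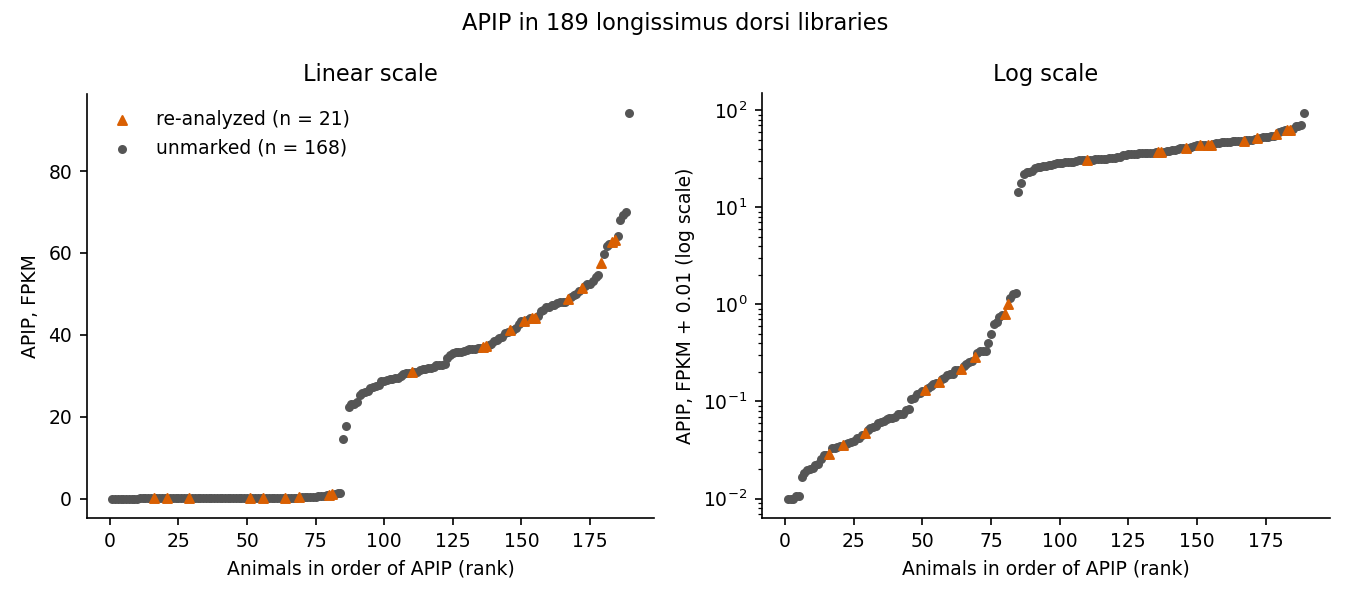
APIP level in FPKM of each of the 189 animals, in order of APIP, on a linear axis (left) and on a logarithmic axis of FPKM + 0.01 (right). Triangles are the 21 re-analyzed and circles the 168 unmarked libraries. The values step across an empty stretch between 1.297 and 14.5 FPKM, and triangles lie on both sides of it.

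The animals nearest to the gap were few. Just below it stood library 54 at 1.297, library 114 at 1.27 and library 167 at 1.14 FPKM. Just above it stood library 168 at 14.5, library 122 at 17.6 and library 190 at 22.2 FPKM. At the other end, 75 animals were under 0.5 FPKM and 3 were listed at 0, libraries 50, 62 and 188. A listed 0 in a table without counts does not show that no fragment was present. The adjacent gene PDHX had 23.6, 22.5 and 24.1 FPKM in the same 3 libraries, above its median over all animals of 20.1 FPKM. In the next lowest libraries in APIP, 106, 68 and 164, PDHX had 13.7, 6.70 and 12.2 FPKM, below that median.

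The spread inside the upper mode was modest. Its middle part, from the lower to the upper quartile, ran from 30.9 to 47.8 FPKM, and the SD was 0.44 log2 units. In the lower mode the quartiles were 0.0260 and 0.205 FPKM, and the counting error at these levels is unknown. Gaussian mixtures on the log2 scale, compared by the Bayesian information criterion (higher is better in the form used), gave -901 for 1 component over all animals, -434 for 2, -361.6 for 3 and -360.8 for 5, which was the highest. The 2 modes named here are therefore the sets on either side of the gap, not the best count of mixture components. Within the upper mode 1 component scored -132 and 2 scored -141, and within the lower mode 3 components scored highest, at 59.4. These scores describe the values that chose the gene.

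A step this wide, with at least 10 animals on each side, had no equal among the 10717 genes tested. APIP ranked first, followed by CBFA2T3, a transcriptional corepressor, with a gap of 2.11 log2 units and 15 animals below it, and by MLEC, a lectin of the endoplasmic reticulum, with a gap of 1.96 and 22 animals below. SCPEP1 had a gap of 1.87, NBR2 of 1.84 and SRP14 of 1.83 log2 units. In all, 16 genes had such a gap of more than 1 log2 unit, while the median gene had one of 0.0547. These figures describe how unlike other genes the distribution is, and APIP was chosen from the same values. The ranking covers listed genes alone. No listed transcript was at 0 in more than 9.52% of libraries, so genes at 0 in a larger share of animals are not among them.

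Animals of the same title code were in the same mode about as often as any pair of animals. Of the 48 shared codes, 33 held animals of both modes, 9 held upper-mode animals alone and 6 held lower-mode animals alone. Of 187 pairs of animals with the same code, 90 were in the same mode, or 48.1%, against 49.8% of all pairs among the 146 animals. Of the 14 codes with 4 or more animals, 12 held both modes. A code with 7 animals had 0.00949, 0.0125, 0.0744, 30.9, 36.5, 37.4 and 38.4 FPKM, so that 3 of its animals were low and 4 high. A second code with 7 animals had 0.000676, 0.0434, 0.0441, 0.134, 26.4, 30.4 and 47.9 FPKM, 4 low and 3 high. The 6 animals of another code split into 2 low ones and 4 between 25.8 and 43.5 FPKM. The other 2 codes with 4 or more animals were low throughout, with 0.0245 to 1.27 FPKM in the 5 animals of the first and 0.0261 to 0.321 FPKM in the 4 animals of the other.

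**Figure D2:**
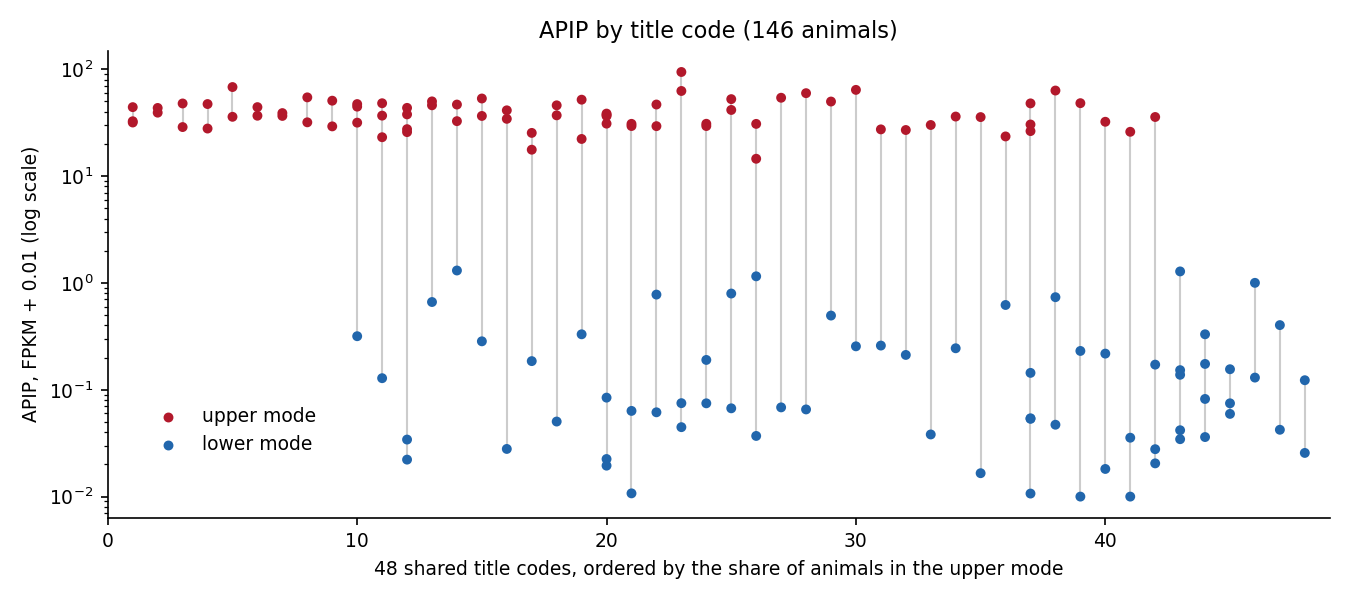
APIP level (FPKM + 0.01, logarithmic axis) of the 146 animals of the 48 shared title codes, with 1 column per code and the codes ordered by their share of upper-mode animals. Grey lines join animals of a code, and 33 of the 48 columns cross the empty stretch.

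No difference between codes was detected. limma's moderated F over codes was 0.98 for APIP, with p = 0.520 and an adjusted p of 0.686, in a comparison in which 1.81% of the 10717 genes were called at an adjusted p under 0.05. The intraclass correlation, the share of variance lying between codes, was -0.0196 for the log2 level (permutation p = 0.584, n = 146 animals) and -0.0311 for being in the upper mode or not (permutation p = 0.641). Among the upper-mode animals of codes with at least 2 of them, 62 animals in 27 codes, it was 0.199 (permutation p = 0.106, adjusted p = 0.318 over the 3 measures). Whether a code marks a litter, a sire or a day is not stated, so these values cannot be read as a measure of inheritance.

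Both modes occurred under every label. In re-analyzed libraries APIP ranged from 0.0191 to 63.2 FPKM with a median of 37.0, and 9 of 21 were in the lower mode (42.9%). In unmarked libraries it ranged from a listed 0 to 94.2 FPKM with a median of 26.2, and 75 of 168 were in the lower mode (44.6%). The groups overlapped over the whole range of the re-analyzed libraries. The mean log2 level was 3.31 ± 2.67 (SD, n = 21) in re-analyzed and 3.01 ± 2.55 (SD, n = 168) in unmarked libraries. limma gave a difference of 0.30 log2 units (SE 0.587, 95% interval -0.85 to 1.45, adjusted p = 0.704). In the same comparison 21.1% of the tested genes were called higher and 23.4% lower, while no difference was detectable for APIP.

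Animals with a title starting in 16 had APIP from a listed 0 to 94.2 FPKM with a median of 22.7, and 57 of 120 were in the lower mode (47.5%). Animals with a title starting in 15 had a listed 0 to 70.1 FPKM with a median of 32.6, and 27 of 69 were in the lower mode (39.1%). The mean log2 level was 2.81 ± 2.53 (SD, n = 120) under 16 and 3.44 ± 2.59 (SD, n = 69) under 15. The difference of -0.61 log2 units (SE 0.384, 95% interval -1.37 to 0.14) did not pass limma's threshold (p = 0.113, adjusted p = 0.261). Of all tested genes, 2.02% were called higher and 11.9% lower under 16. An interval that reaches past 1 log2 unit leaves room for a sizeable shift in the share of low animals.

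**Figure D3:**
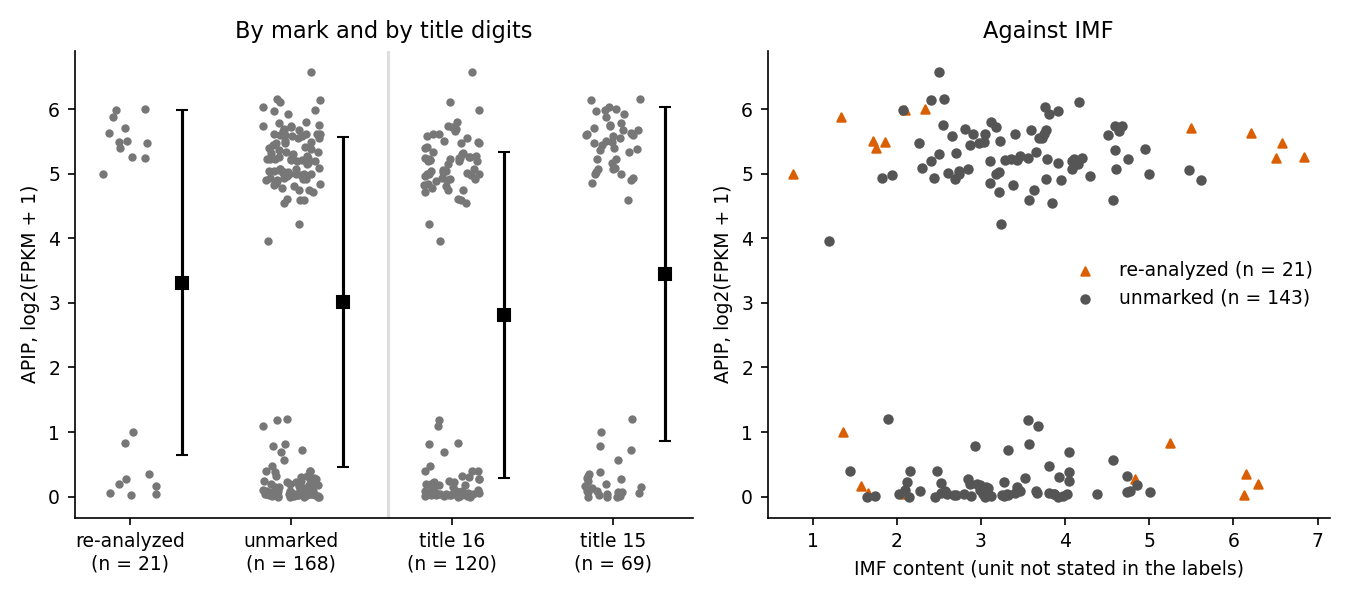
APIP level, log2(FPKM + 1), by the re-analyzed mark and by the leading title digits (left; points are animals, squares and bars the mean ± SD), and against IMF content (right; unit not stated; triangles re-analyzed, circles unmarked). Each label set holds animals near 0 and animals near 5 log2 units, and the bands overlap in IMF from 1.36 to 6.29, beyond which on both sides the animals are in the upper mode.

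No relation of APIP to IMF was detected. The slope of the APIP log2 level on IMF over 164 animals, with the mark as a covariate, was 0.15 log2 units per IMF unit (SE 0.178, 95% interval -0.20 to 0.49), and limma's adjusted p was 0.961. In this comparison 0.084% of the tested genes were called higher with IMF and none lower by limma, with 527 genes of either direction at an unadjusted p under 0.05. The 21 re-analyzed libraries had a slope of -0.10 (SE 0.240), the 143 unmarked libraries with IMF one of 0.39 (SE 0.249), and the difference of slopes, -0.49 (SE 0.354), did not pass either (limma, p = 0.171, adjusted p = 1.00). Because the values form separate modes, no correlation over all animals is given. Within the upper mode Pearson's r of APIP with IMF was -0.0199 (permutation p = 0.852) and Spearman's rho -0.0559 (p = 0.603, n = 89), and r was -0.0265 without the 2 animals farthest in IMF. Within the lower mode r was 0.0336 (permutation p = 0.774) and rho 0.145 (p = 0.214, n = 75), and r was 0.0248 without the 2 farthest animals. Adjusted over both modes, the p-values were 0.852 for both r, and 0.603 and 0.428 for rho.

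APIP lies on chromosome 2, where the deposited table (Sscrofa11.1) places its transcript on the plus strand from 26099594 to 26115269, with 7 exons and a length of 684 bases. The single listed gene within 200 kb is PDHX, component X of the pyruvate dehydrogenase complex, which anchors the dihydrolipoamide dehydrogenase subunit to the core of the complex. PDHX lies on the minus strand from 26015857 to 26094846, with 11 exons, and the spans of the 2 genes are 4747 bases apart. The RefSeq annotation of the same assembly starts APIP at 26095020, which is 4574 bases before the start of the listed transcript and 124 bases from the end of its PDHX span at 26094895. The 2 genes thus point away from each other on opposite strands. RefSeq also places the microRNA gene MIR1343, the pseudogene LOC100525908 and the epithelial transcription factor gene EHF within the window, at distances of 28607, 160515 and 171781 bases from the RefSeq APIP span, and these were not analysed here.

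PDHX had a single broad range where APIP had 2 modes. It ran from 4.45 to 40.6 FPKM, with a median of 20.1 and a mean of 19.0 ± 7.45 FPKM (SD, n = 189). Over all animals its log2 level had a slope of -0.003 per log2 unit of APIP (SE 0.0176, limma p = 0.851, adjusted p = 1.00). No relation of PDHX to APIP was thus detectable over all animals.

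Within the upper mode, PDHX rose with APIP. The slope was 0.71 log2 units of PDHX per log2 unit of APIP (SE 0.122, limma adjusted p = 1.79e-06, n = 105). Pearson's r was 0.525 and Spearman's rho 0.462, each with a permutation p of 1e-05, the smallest that 100000 permutations can give, and an adjusted p of 0.00022 over 22 relations. Without the 2 animals farthest from the median of APIP, r was 0.521. Within the lower mode the slope was 0.58 (limma p = 0.0150, adjusted p = 0.137, n = 84), with r at 0.282 (permutation p = 0.00926, adjusted p = 0.034) and rho at 0.331 (permutation p = 0.00203, adjusted p = 0.0149). The relation was not particular to the pair. In the upper mode 306 genes, PDHX itself included, had an r with APIP at least as high as that of PDHX. By p PDHX stood at rank 316 of 10716. With the first principal component of the other genes as a covariate, an alternative chosen after seeing the data, the upper-mode slope fell to 0.15 and its call was lost (limma adjusted p = 0.0569).

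**Figure D4:**
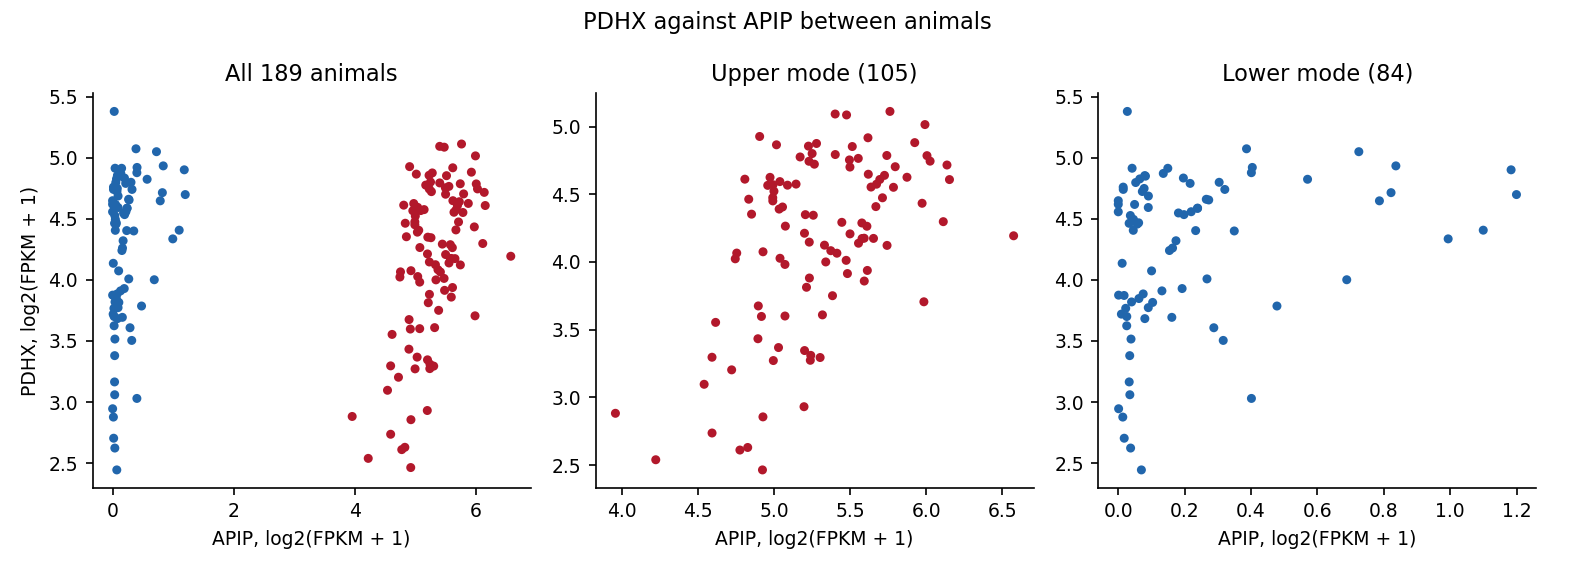
PDHX against APIP, both log2(FPKM + 1), 1 point per animal, in all 189 animals, in the 105 of the upper mode and in the 84 of the lower mode. The 2 clouds on the left cover much the same PDHX range, while the upper-mode points slope upward (r = 0.525).

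A wider window of 1000 kb, added after seeing the data, held 11 listed genes including PDHX. Over all animals their slopes on APIP lay between -0.013 and 0.023, and each had a limma adjusted p of 1.00. In the upper mode, besides PDHX, the slopes of CAT (catalase, which breaks down hydrogen peroxide; 0.47, adjusted p = 0.00224), CAPRIN1 (an RNA-binding protein; 0.37, adjusted p = 0.00159) and TRIM44 (0.31, adjusted p = 0.00266) passed limma's threshold. LDLRAD3, a receptor gene, ran the other way by correlation (r = -0.255, permutation test, adjusted p = 0.034; rho = -0.248, adjusted p = 0.0395), while its slope of -0.13 was not called (limma adjusted p = 0.101) but was under 4 of 11 alternatives. CD44, the closest of the others to APIP at 215336 bases, was not called. CAT, CAPRIN1 and TRIM44 each lost the call under at least 3 of the alternative settings, among them a shift of every library to the same median.

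No gene was called as varying with APIP across the modes. Over all 189 animals, with the mark as a covariate, limma called 0 of 10716 other genes as rising and 0 as falling with APIP (0% in each direction). At an unadjusted p under 0.05 there were 243 genes, or 2.27%, and the smallest adjusted p was 1.00. Ranked by Spearman's rho over all animals, as a measure of likeness only, the gene most like APIP was IDI1, an isomerase of isoprenoid and cholesterol synthesis, at 0.286. NEK4 followed at 0.269, PPCS, an enzyme of coenzyme A synthesis, at 0.260, SREBF1, the transcription factor that drives fatty acid synthesis genes, at 0.258, NAPRT, an enzyme of NAD synthesis, at 0.254 and WDR41 at 0.252. CNKSR3 had 0.249, CLIP4 0.241, a gene without a symbol 0.239 and ITPA, which removes inosine triphosphate, 0.234. The most opposed genes were PRIMA1 at -0.247, CAPN15 at -0.234, ZNF521 at -0.227, EGFLAM at -0.225 and the basement membrane protein gene NID1 at -0.220. None of the 10716 genes reached 0.3 in size.

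None of the other salvage enzymes had a called slope on APIP over all animals. Of the 8 listed beside it, 7 were measured, and TAT was not. MTAP ranged from 0.225 to 7.88 FPKM with a median of 2.09, MRI1 from 2.86 to 12.4 with a median of 6.40 and ENOPH1 from 1.92 to 8.15 with a median of 4.42. ADI1 was more abundant, from 28.3 to 92.3 FPKM with a median of 43.5. Among the aminotransferases KYAT1 had a median of 7.90, GOT1 of 28.1 and GOT2 of 64.9 FPKM. Over all animals the slopes of MTAP (-0.01), MRI1 (0.01), ENOPH1 (-0.00), ADI1 (0.01), KYAT1 (0.00), GOT1 (0.00) and GOT2 (0.00) on APIP were all without a call, and the lowest unadjusted p of the 7 was that of ADI1, at 0.109 by limma.

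Within the upper mode the picture was different, and many genes varied with the APIP level. limma called 3308 of 10716 genes as rising (30.9%) and 686 as falling (6.4%), with a median slope of 0.0754 over all genes. This split depended on the scaling: after quantile normalization the counts were 1754 rising and 1685 falling, and after a median shift 899 and 674. In the lower mode limma called 0 genes in each direction (0%), with 2504 genes or 23.4% at an unadjusted p under 0.05. The smallest adjusted p there was 0.123, and the median slope over all genes was 0.0690. The log2 level of APIP had an SD of 0.28 in the lower mode, against 0.44 in the upper mode. With ranks of APIP in place of its log2 level, limma called 834 of the 10716 genes as rising and 42 as falling in the lower mode. That a count differs between modes was not tested as a difference of slopes.

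The 5 genes with the smallest p in the upper mode, named after their values were seen, were RPS24 and RPL4, proteins of the small and large ribosomal subunit, EIF3H and EIF3E, subunits of an initiation factor, and TPT1, the translationally controlled tumour protein. RPS24 had a slope of 0.81 log2 units per log2 unit of APIP (SE 0.0760, limma adjusted p = 2.45e-14) and r = 0.738 with APIP. EIF3H had 0.62 (adjusted p = 2.71e-14), EIF3E 1.16, TPT1 0.54 and RPL4 0.52, and all 5 were called under each of the 12 alternatives. Of 60 genes with ribosomal protein symbols, a list also made after seeing the values, 43 rose (71.7%) and 0 fell, against 30.9% and 6.4% of all genes, and the other 17 were not called. Ribosomal protein genes have many near-identical copies, and how reads shared between copies were assigned is not stated. With the title code as a factor 13 of the 60 rose (21.7%), against 16.1% of all genes. That setting kept only the 62 upper-mode animals that shared a code with another upper-mode animal. After quantile normalization 31 rose (51.7%), against 16.4% of all genes, and with the first principal component as a covariate 46 rose (76.7%), against 7.37%.

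The largest called slopes by the naming rule included 3 genes without a symbol. The steepest of these, at 1.53, was mitochondrially encoded, and the others had 1.27 and 1.18. FKBP3, a peptidyl-prolyl isomerase of the nucleus, had 1.23 (SE 0.206, limma adjusted p = 1.31e-06). NT5C3A, a cytosolic nucleotidase, had 1.18 (SE 0.140, limma adjusted p = 8.8e-11). The steepest falling genes included 3 of fat synthesis. FASN, fatty acid synthase, had -1.34 (SE 0.255, limma adjusted p = 1.47e-05), SCD, stearoyl-CoA desaturase, -0.98 (SE 0.301, adjusted p = 0.0064) and DGAT2, which completes triglycerides, -0.86 (SE 0.253, adjusted p = 0.00445). The other steep falls were those of IGHD, an immunoglobulin heavy chain gene, at -0.96 and of a gene without a symbol. FASN was called under each of the 12 alternatives, and SCD and DGAT2 under 10. Over all animals the slopes of SCD (0.10), DGAT2 (0.07) and FASN (0.07) on APIP were positive and not called by limma. SREBF1 had a positive upper-mode slope of 0.23, also not called (limma adjusted p = 0.136). IDI1, the gene most like APIP over all animals, had r = 0.592 with it in the upper mode.

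Of the 7 salvage enzymes measured, 2 rose and 1 fell with APIP in the upper mode, against 30.9% and 6.4% of all genes, and the list's median slope of 0.04 was below that of all genes. ENOPH1, the enzyme that follows APIP, had a slope of 0.31 (SE 0.0592, limma adjusted p = 1.28e-05) and was called under each of the 11 alternatives that measured it. MTAP, the first enzyme, had 0.43 (SE 0.111, adjusted p = 0.00111), and GOT1 had -0.39 (SE 0.121, adjusted p = 0.00624). MTAP and GOT1 both lost the call after the median shift. MRI1, ADI1, KYAT1 and GOT2 did not pass, with slopes between -0.20 and 0.08.

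In the pathways that feed and receive from methionine salvage, the share of genes called as rising was no larger than the 30.9% of all genes. Of 8 measured genes of the methionine cycle and transsulfuration, AHCYL1 alone rose (0.30, limma adjusted p = 0.0475), a call kept under 2 of 12 alternatives, and the list's median slope was 0.02. Of 10 measured genes of polyamine synthesis and turnover, 3 rose and 0 fell, a share of rising genes like the 30.9% of all genes, with a median slope of 0.17. They were SMS, spermine synthase, whose reaction releases methylthioadenosine (0.61, limma adjusted p = 6.49e-05), AZIN1, which protects ornithine decarboxylase from its antizyme (0.37, adjusted p = 0.0166), and SAT2, named as a polyamine acetyltransferase (0.21, adjusted p = 0.0439). SMS was called under 10 of 12 alternatives, AZIN1 under 8 of 12 and SAT2 under 3 of 11.

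Of 9 measured genes of the apoptosome list, 3 rose and 0 fell in the upper mode, near the 30.9% of all genes that rose, and the median slope of 0.03 was below that of all genes. The caspase inhibitor XIAP had a slope of 0.48 (limma adjusted p = 0.00231), cytochrome c, CYCS, 0.41 (adjusted p = 0.00107) and APIP's binding partner APAF1 0.25 (adjusted p = 0.00143). All 3 lost the call after the median shift, and CYCS and XIAP turned negative with the first principal component as a covariate. Over all animals no gene of the methionine cycle, polyamine or apoptosome lists was called, and 1 of them, SMOX, had an unadjusted p under 0.05 (limma, p = 0.0394, adjusted p = 1.00).

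**Figure D5:**
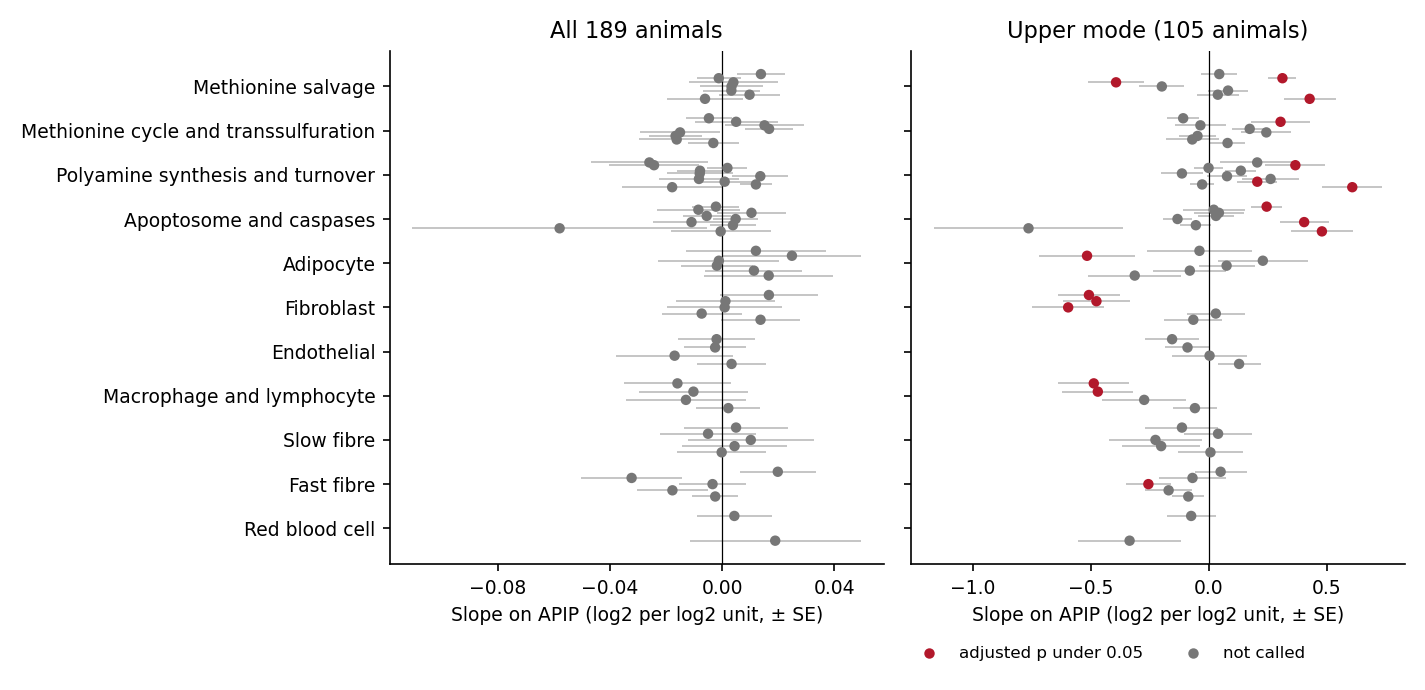
Slope of each measured list gene on APIP (log2 units per log2 unit, ± SE) over all 189 animals (left) and within the 105 upper-mode animals (right), with 1 row of points per list and genes called by limma in red. No gene is called on the left, and the 2 axes differ in scale.

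Some markers of other cell types in the muscle also varied with APIP in the upper mode, where 6.4% of all genes fell and 30.9% rose. In bulk tissue fewer cells of a type and less RNA per cell cannot be told apart. Of 5 fibroblast markers 3 fell with APIP, the collagen genes COL3A1 (slope -0.60), COL1A1 (-0.51) and COL1A2 (-0.48). Each had a limma adjusted p of 0.0054 or less. DCN (0.03) and LUM (-0.07) were not called. The list median was -0.48, with a summed level of 151 to 2201 FPKM over all libraries. Of the macrophage and lymphocyte list 4 markers were measured, while PTPRC was not tested. The complement genes C1QA (-0.49) and C1QB (-0.47) fell, and CD163 (-0.27) and CD68 (-0.06) were not called. The 4 together had summed levels of 3.77 to 65.1 FPKM. Of 6 adipocyte markers CIDEC alone was called, and it fell (-0.52, limma adjusted p = 0.0382), with summed levels of 34.1 to 3178 FPKM. The adipocyte list's median slope was -0.06, and FABP4 (0.23), LEP (0.08), ADIPOQ (-0.04), LPL (-0.08) and PLIN1 (-0.31) were not called. Of 5 fast-fibre genes MYLPF alone was called, and it fell (-0.26, limma adjusted p = 0.0268). None of 4 endothelial, 5 slow-fibre or 2 measured red blood cell markers was called by limma. All 3 collagen genes lost the call with the title code as a factor (limma adjusted p of 0.222 to 0.476), and COL1A2 also with the first principal component (0.0629). The title code setting kept 62 of the 105 upper-mode animals, and the slopes stayed negative in it (COL3A1 -0.44, COL1A1 -0.37, COL1A2 -0.29). Fewer animals and the code itself cannot be told apart there. C1QA and C1QB each lost the call under 3 alternatives, CIDEC under 4 and MYLPF under 6. Over all animals no marker was called and each list's median slope was within 0.012 of 0. The part of these cell types in the upper-mode slopes was not tested.

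Properties of the libraries moved with the APIP level as well. In the upper mode APIP correlated with the share of FPKM taken by the 10 most abundant genes, which ranged from 20.0 to 44.8% over all libraries. By permutation test r was -0.386 (p = 4e-05, adjusted p = 0.00032 over 8 relations) and rho -0.325, with r = -0.366 without the 2 farthest animals. APIP also correlated in the upper mode with the share of mitochondrially encoded genes, which ranged from 2.69 to 13.4% over all libraries. By permutation test r was 0.349 (adjusted p = 0.0008) and rho 0.323 (adjusted p = 0.00352), with r = 0.360 without the 2 farthest animals. For the number of genes at 1 FPKM or more, r was 0.343 (permutation test, adjusted p = 0.0008) and rho 0.247 (adjusted p = 0.0233). Without the 2 farthest animals that r was 0.317. The summed FPKM did not pass (r = 0.114, permutation test, adjusted p = 0.246). In the lower mode the share of the 10 most abundant genes passed (r = -0.285, permutation test, adjusted p = 0.0174) and the other 3 measures did not. The part of these library properties in the upper-mode slopes was not tested beyond the principal component covariate, with which 790 genes rose and 561 fell.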

How the data were processed

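Muscle RNA of 189 pigs was sequenced, and the submitters' processing notes name HISAT2 2.0.5, StringTie 1.3.3 and the build Sscrofa11.1. The authors deposited 1 FPKM value per transcript and animal. The header names no unit, and FPKM is an inference from the column layout and the near-constant sample sums. No annotation release is given in the sources used, nor is the filter on transcripts. No listed transcript of the 18114 was at 0 in more than 9.52% of libraries. Depth is unknown, and errors are the spread between animals.

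FPKM were summed per gene, and the 10717 genes averaging 0.5 FPKM or more were tested on log2(FPKM + 1), a scale that understates the change of low genes. limma 3.58.1 in R 4.3.3 (mean trend, 2-sided, Benjamini-Hochberg over all tested genes, threshold 0.05) gave the F test over title codes, the slopes and the differences. The mark was a covariate of all slopes and of the title digit comparison. Mixtures used mclust 6.1.1. Correlations and intraclass correlations used 100000 permutations, 2-sided for correlations. Simulated data with known slopes served as a test of the scripts. Animals were treated as independent, although the cross had 8 boars and, by different labels, 112 or 158 sows.

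Named genes were APIP, its neighbours within 200 kb, the 10 genes highest and 5 lowest in rho with APIP, the 5 steepest called slopes in each direction, and called or central members of the gene lists. The member and the lists were chosen with earlier results of these data known, and 1 list gene is not reported here. As the values fell in separate modes, slopes within each mode were added after seeing the data. Gene positions come from the deposited table and from RefSeq, whose entries were matched by symbol. Alternatives changed the pseudocount, the filter, the scaling, the libraries, the covariates and the form of APIP.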

Additional observations from a re-analysis of the deposited data

Results flagged for a closer look

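In 3 of the 14 title codes with 4 to 10 animals, 1 animal stood apart from the others by Dixon's criterion for a single deviating value. Gaps and ranges were taken on the log2(FPKM + 1) scale, while the levels below are in FPKM. The criterion is set so that chance meets it in about 1 of 20 groups with a single-peaked spread. APIP has 2 modes, so that rate does not hold here and the flags are a description, not a test. Libraries 44 and 177 below were each the only animal of their mode in their code. In a code with 4 animals, library 44 had 0.307 FPKM, while the others lay between 31.6 and 47.2 FPKM, and its gap was 0.892 of the range. In a code with 5 animals, library 114 had 1.27 FPKM against 0.0245 to 0.143 FPKM in the others, a gap of 0.863 of the range, with all 5 in the lower mode. In another code with 4 animals, library 177 had 35.7 FPKM against 0.0105 to 0.162 FPKM in the others, a gap of 0.961 of the range.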

How the results depend on the processing

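The results on the labels kept their direction and stayed without a call under each alternative run: the IMF slope lay between 0.0085 and 0.39, the difference by mark between 0.27 and 0.49, that by title digits between -0.89 and -0.55, and the intraclass correlation of codes between -0.0326 and -0.0196, or -0.0653 to -0.00306 with each code left out in turn. No gene was called over all animals under any of the 12 alternatives, with 109 to 567 at an unadjusted p under 0.05. The PDHX slope over all animals turned to 0.31 with ranks of APIP (limma adjusted p = 0.739) and to 0.00596 with the first principal component (0.999). Slopes on ranks are log2 units over the whole range of ranks, so their size cannot be set against slopes per log2 unit of APIP. In the lower mode the PDHX slope turned to -0.14 after a median shift and to -0.0459 with that component. With ranks the lower-mode PDHX slope was called (0.68, limma adjusted p = 0.0476), as were 834 rising and 42 falling genes. In the upper mode the PDHX call was lost with the component (0.15). The upper-mode count of rising genes was 1492 at a mean of at least 5 FPKM, 1754 after quantile normalization, 899 after a median shift, 1725 with title codes as a factor and 790 with the component. The count of falling genes was 394 at a mean of at least 5 FPKM, 1685 after quantile normalization, 175 with title codes and 1081 without the mark. All upper-mode results with title codes rest on the 62 animals of codes shared within that mode, so they also have fewer animals. Single genes turned sign in 7 cases: MYLPF (0.057) after the median shift, AHCYL1 (-0.0234) and SAT2 (-0.0564) with title codes, and CYCS (-0.0194), XIAP (-0.0617), MYLPF (0.10) and TRIM44 (-0.0679) with the component. Of 31 named genes called in the upper mode, 17 kept the call after a median shift, 17 with title codes and 12 with the component. The cause was not tested. Using the highest APIP transcript alone was not run, since 1 is listed. No analysis paired by replicate number was possible because the labels number no replicates; the title code, entered as a factor, was the block that could be fitted. Counting error in the lower mode is unknown.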
